A study of Mus musculus with 18 samples.

Results

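Small leucine-rich proteoglycans are secreted core proteins of the connective tissue matrix, and 9 of their genes were followed here: Bgn, Dcn, Aspn, Fmod, Lum, Prelp, Omd, Ogn and Podn. They were taken from a list of names, by symbol, and all 9 were found among the 55401 gene identifiers of the count table. The samples were 18 libraries of polyadenylated RNA from mouse embryonic fibroblasts (MEFs), in 2 series of 3 groups with 3 libraries each. In the S6K1 series, wild-type (WT) cells carried an empty retroviral vector (WT EV) or a vector for a constitutively active HRAS mutant (WT RAS), and cells lacking S6K1 carried the HRAS vector (KO RAS). In the S6K1/S6K2 series, WT EV and WT RAS were again prepared, and the third group lacked both S6K1 and S6K2 and carried the HRAS vector (DKO RAS). Oncogenic RAS drives cultured fibroblasts into senescence, and S6K1 and S6K2 are kinases downstream of mTORC1. The 18 libraries held no KO or DKO cells with the empty vector, so the comparison of genotypes was made only among cells with RAS. The cells came from mid-gestation embryos after removal of the head and viscera, were selected with puromycin, and are mixed primary cultures rather than clones. S6K1 KO and WT embryos were littermates. DKO embryos and their WT controls came from different mothers, so genotype and litter cannot be told apart in that series.

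These proteins share a core of leucine-rich repeats that binds collagen, and most carry chondroitin, dermatan or keratan sulfate chains. They coat collagen fibrils, set their diameter and spacing, and hold growth factors such as TGF-β in the matrix. Fibroblasts of tendon, skin, cornea and bone make them in different mixtures, and the family is usually divided into classes by sequence: class I holds Bgn, Dcn and Aspn, class II holds Fmod, Lum, Prelp and Omd, class III holds Ogn, and class V holds Podn.

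Most of the 9 genes lie in clusters. In the RefSeq annotation of GRCm38.p6, Prelp (chr1:133910304-133930102) and Fmod (chr1:134037254-134048280) are 107151 bases apart, and Dcn (chr10:97479500-97518163) and Lum (chr10:97565501-97572703) are 47337 bases apart. Aspn (chr13:49544443-49567565), Omd (chr13:49582462-49592612) and Ogn (chr13:49608015-49624501) follow each other on chromosome 13, with 14896 bases between the first pair and 15402 between the second. In each of these intervals the annotation has 0 protein-coding genes. Bgn (chrX:73483601-73495936) and Podn (chr4:108014793-108031954) stand alone. The 3 genes on chromosome 13 lie within the span of Cenpp, a centromere protein gene, whose level was between 0.834 and 7.16 CPM (counts scaled to the library's total with a TMM factor) in the 18 libraries. The study's methods name a stranded library kit, but the strand setting of the counting is not given in the sources used here. Reads of Cenpp introns may therefore be among the counts of these genes, and their part was not tested. This matters most for Omd, whose level was of the same size as that of Cenpp. The Cenpp level is a gene count, and its intron reads were not counted apart. In KO RAS replicates 1 and 2 of the S6K1 series Cenpp had 22 and 14 counts and Omd had 1 and 0.

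RefSeq start windows were given for 7 of the 9 members. The 250 bases before the start (GRCm38.p6, in the direction of the gene) are shown for Fmod, Prelp and Aspn, the members that fell most under RAS, and for Bgn, the most abundant and least changed of those that fell. Capitals mark matches, on either strand, to the TATA box TATAAA, the GC box GGGCGG, the AP-1 motif TGANTCA or the TEAD motif CATTCC. The windows are chr1:134037004-134037253 on the plus strand for Fmod, chr1:133921402-133921651 on the minus strand for Prelp, where the start in the table is an internal one that lies within the span given above, chr13:49544193-49544442 on the plus strand for Aspn and chrX:73483351-73483600 on the plus strand for Bgn.
Fmod: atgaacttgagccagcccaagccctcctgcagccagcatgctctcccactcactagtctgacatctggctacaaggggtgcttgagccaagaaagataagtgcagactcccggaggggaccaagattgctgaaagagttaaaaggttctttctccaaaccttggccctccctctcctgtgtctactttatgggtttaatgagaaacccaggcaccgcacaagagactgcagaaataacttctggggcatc
Prelp: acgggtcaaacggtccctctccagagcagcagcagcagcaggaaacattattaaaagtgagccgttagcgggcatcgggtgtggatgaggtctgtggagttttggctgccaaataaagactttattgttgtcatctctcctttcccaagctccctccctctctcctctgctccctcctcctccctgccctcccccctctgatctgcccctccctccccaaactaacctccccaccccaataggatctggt
Aspn: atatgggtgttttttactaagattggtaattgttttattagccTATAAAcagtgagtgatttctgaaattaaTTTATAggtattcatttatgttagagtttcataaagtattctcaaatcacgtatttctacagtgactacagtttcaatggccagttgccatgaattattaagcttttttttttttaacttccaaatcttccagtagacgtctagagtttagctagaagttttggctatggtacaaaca
Bgn: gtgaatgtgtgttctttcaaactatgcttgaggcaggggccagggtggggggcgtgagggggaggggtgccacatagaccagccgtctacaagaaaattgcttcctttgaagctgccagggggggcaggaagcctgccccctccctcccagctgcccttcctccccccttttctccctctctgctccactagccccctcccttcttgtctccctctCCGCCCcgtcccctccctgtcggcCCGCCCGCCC
The Bgn window held 3 GC boxes, of which the last pair overlap each other, and 64.4% of its bases were G or C. The Aspn window held 2 TATA boxes, at bases -207 to -202 and -178 to -173 from the start, and had 30% G and C. No match was found in the Fmod window (51.2% G and C) or the Prelp window (55.6% G and C). Over the 32851 windows of the same length in the table, 12.4% held the TATA box, 32.7% the GC box, 6.75% the AP-1 motif and 12.6% the TEAD motif. The windows of Ogn, with 2 overlapping TATA matches and a TEAD match, of Podn, with a pair of GC boxes in one of its 2 start windows, and of Omd, with no match, are not printed.

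The libraries held between 8319445 and 14402442 counts each, so 3 counts stood for 0.208 to 0.361 CPM before TMM scaling. Levels under 3 counts, which occur for Fmod and Omd in cells with RAS, are printed as measured and are not told apart from each other, and fitted changes of these genes depend on so few counts. The labels were checked first. Rps6kb1, the gene of S6K1, fell by 1.17 (log2, SE 0.17) in KO RAS against WT RAS, which had an adjusted p of 0.234 in edgeR and of 1.0e-04 with the replicate number as a block. In DKO RAS against WT RAS it fell by 1.11 (SE 0.11, edgeR adjusted p = 0.0091) and Rps6kb2, the gene of S6K2, by 3.18 (SE 0.17, adjusted p = 7.4e-05). Hras rose by 0.93 (SE 0.14, adjusted p = 0.0029) and 0.75 (SE 0.15, adjusted p = 0.0057) log2 units under RAS in the S6K1 and the S6K1/S6K2 series. All 10 fibroblast markers were above 3 counts in every group. Their summed level was 31514 to 49126 CPM in the EV libraries and 14378 to 19124 CPM in the RAS libraries, and Col1a1, Col1a2 and Col3a1 are among them. One library stood apart for these genes: replicate 1 of WT EV in the S6K1/S6K2 series had the highest level of all 18 libraries for 7 of the 9 genes, Aspn and Prelp being the exceptions.

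RAS lowered 7 of the 9 members in both series. In the S6K1 series, 7 members were lower in WT RAS than in WT EV at an edgeR adjusted p under 0.05, and 6.09% of the 14036 genes tested were lower. Lum was the 1 member that was higher, where 7.15% of all genes were, and the median change of the members was -2.20 (log2) against 0.00184 for all genes. In the S6K1/S6K2 series the same 7 members were lower, of 12.7% of the 13881 genes tested, and 0 members were higher, where 13.5% of all genes were. Their median was -2.55 against -0.024. All 9 members passed the filter on low counts in both series. Fmod and Omd passed it through the EV libraries: with only the 6 RAS libraries of a series in the fit, neither was tested in either series. Every RAS library of the S6K1 series had under 10 counts of each. A gene that enters only where it is high can come out only as lower, so Fmod and Omd add no independent weight to the 7. With at least 10 counts required in every library, 6 members were tested and 4 were lower in each series. In those fits 710 of 12179 genes were lower in the S6K1 series and 1518 of 11831 in the other.

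**Figure D1:**
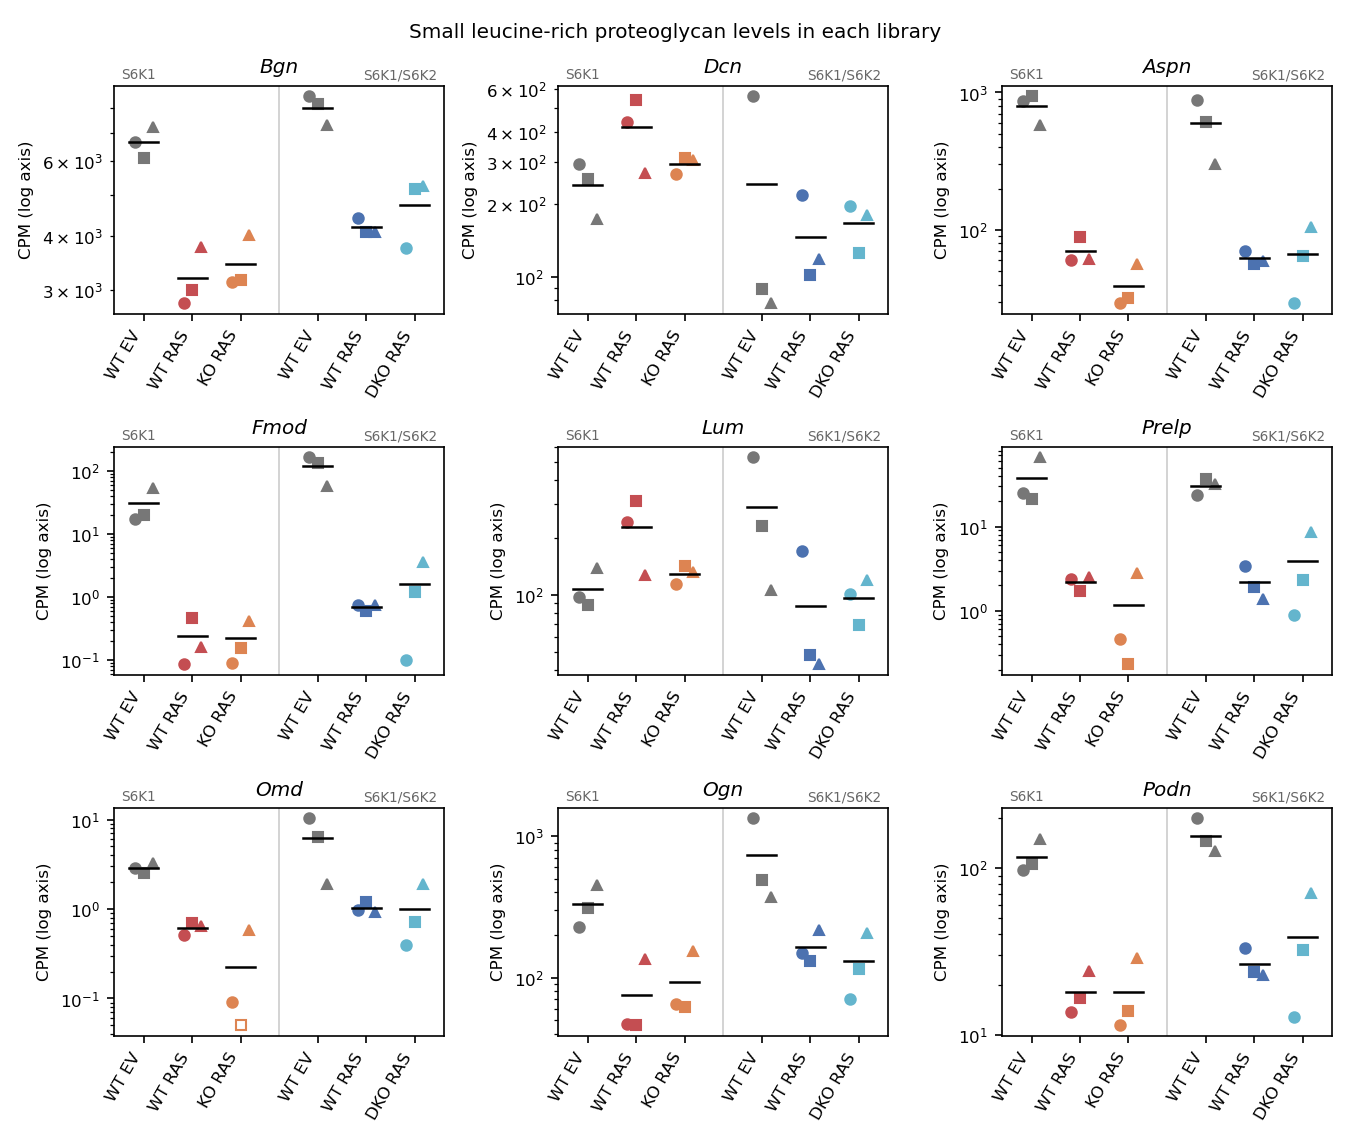
Level of each of the 9 genes in each of the 18 libraries, in CPM on a log axis, for the 3 groups of the S6K1 series (left of the line) and of the S6K1/S6K2 series (right). Circles, squares and triangles are replicates 1, 2 and 3, bars are means of 3 libraries, and the open square for Omd in KO RAS is a library with 0 counts, drawn at 0.05. The EV libraries lie above all RAS libraries of their series for the 7 genes other than Dcn and Lum. The share of all genes that separate in this way was not counted.

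Fmod, fibromodulin, which binds collagen fibrils and guides their cross-linking, had the widest range of the 9 genes. In the S6K1 series its level was 17.4, 20.4 and 54.8 CPM in WT EV, 0.0854, 0.467 and 0.161 CPM in WT RAS while the KO RAS libraries held 0.0909, 0.153 and 0.417 CPM. Fmod was higher in the WT EV libraries of the S6K1/S6K2 series, at 165, 134 and 57.3 CPM, and stood at 0.756, 0.595 and 0.741 CPM in WT RAS and at 0.0991, 1.22 and 3.61 CPM in DKO RAS. Every EV library was thus above every RAS library, and most RAS libraries were close to the limit of detection, with 1 to 8 counts in each WT RAS library. The change under RAS was -6.93 (log2, SE 0.68, edgeR adjusted p = 0.00037) and -7.38 (SE 0.75, adjusted p = 0.00026). Fmod had the lowest change of all 14036 genes tested in the S6K1 series and the second lowest of the 13881 in the other. These places are limited by its entry through the EV libraries and by its few counts in cells with RAS. Over the summed counts, 1122 against 9 in the S6K1 series, the ratio after scaling was 119 with a counting interval (95%, exact) of 62.6 to 261. It was 169 (109 to 277) for 4060 against 20 counts in the S6K1/S6K2 series.

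Prelp, which binds heparan sulfate at basement membranes and collagen with its repeats, is the neighbour of Fmod. It stood at 24.8, 21.2 and 66.3 CPM in WT EV and 2.39, 1.71 and 2.49 CPM in WT RAS of the S6K1 series, a change of -4.08 (log2, SE 0.71, edgeR adjusted p = 0.0053). In the S6K1/S6K2 series it went from 23.5, 36.4 and 31.8 CPM to 3.35, 1.91 and 1.39 CPM, a change of -3.79 (SE 0.67, adjusted p = 0.0035). The groups did not overlap in either series. Between 15 and 31 counts lay behind each WT RAS value in the S6K1/S6K2 series and 22 to 31 in the S6K1 series.

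Aspn, asporin, a class I member without a glycosaminoglycan attachment site that binds collagen and TGF-β, was the second most abundant member per kilobase of exon in WT EV of the S6K1 series. It was 874, 937 and 582 CPM in WT EV and 60.5, 88.9 and 61.9 CPM in WT RAS there, and 886, 610 and 301 CPM against 70.6, 56.3 and 59.7 CPM in the S6K1/S6K2 series. The change was -3.50 (log2, SE 0.31, edgeR adjusted p = 0.00026) and -3.27 (SE 0.48, adjusted p = 0.0016), an 11.3-fold and a 9.64-fold fall. The fall was seen in each of the 3 replicate numbers of both series. Between 297 and 1161 counts lay behind each RAS value.

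Podn, podocan, was 97.7, 105 and 149 CPM in WT EV and 13.7, 16.5 and 24.2 CPM in WT RAS of the S6K1 series, and 199, 146 and 126 CPM against 33.2, 23.9 and 22.9 CPM in the other. Its change was -2.69 (log2, SE 0.37, edgeR adjusted p = 0.0017) and -2.55 (SE 0.49, adjusted p = 0.0055), with no overlap of the groups.

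Ogn, osteoglycin or mimecan, a class III member of cornea and bone, was 228, 309 and 449 CPM in WT EV and 46.9, 45.9 and 134 CPM in WT RAS of the S6K1 series. It was 1334, 486 and 372 CPM against 149, 131 and 215 CPM in the S6K1/S6K2 series. The change was -2.12 (log2, SE 0.51, edgeR adjusted p = 0.026) and -2.14 (SE 0.52, adjusted p = 0.014), and the groups did not overlap. In the S6K1 series this call rested on few libraries: without WT EV replicate 2 or 3, or WT RAS replicate 1 or 2, the adjusted p was 0.0625 to 0.101, and without WT RAS replicate 2 of the other series it was 0.0639.

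Omd, osteomodulin or osteoadherin, the bone member of class II, was the least abundant in the EV groups. It was 2.85, 2.53 and 3.30 CPM in WT EV and 0.512, 0.701 and 0.643 CPM in WT RAS of the S6K1 series, that is 34 to 41 counts against 6 to 9, and 10.3, 6.45 and 1.92 CPM against 0.972, 1.19 and 0.927 CPM in the other. The change was -2.20 (log2, SE 0.59, edgeR adjusted p = 0.039) and -2.59 (SE 0.67, adjusted p = 0.02), and it no longer passed in the S6K1 series without any one of the 6 libraries compared (adjusted p 0.0733 to 0.131). In the S6K1/S6K2 series it did not pass without WT EV replicate 1 or any one WT RAS library (0.0527 to 0.0723). Omd lies inside Cenpp, whose level was 0.834 to 7.16 CPM, and the part of Cenpp reads in the Omd counts was not tested.

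Bgn, biglycan, which carries chondroitin or dermatan sulfate and, once released, can act on Toll-like receptors, was the most abundant member in every library. Its level was 6657, 6091 and 7208 CPM in WT EV and 2788, 3003 and 3787 CPM in WT RAS of the S6K1 series, and 8511, 8170 and 7310 CPM against 4421, 4097 and 4106 CPM in the other. The change was -1.06 (log2, SE 0.17, edgeR adjusted p = 0.0036) and -0.93 (SE 0.19, adjusted p = 0.0077), the smallest of the 7 falls in both series. Bgn fell 2.08-fold and 1.90-fold, and it still held the highest level per kilobase in each RAS group.

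Dcn and Lum, neighbours on chromosome 10, were not among the 7 that fell. Dcn, decorin, which binds collagen I and TGF-β, was 294, 256 and 174 CPM in WT EV and 439, 540 and 271 CPM in WT RAS of the S6K1 series. It was higher in WT RAS in 3 of 3 replicate numbers, with a change of 0.79 (log2, SE 0.26) and an edgeR adjusted p of 0.082. Replicate numbers paired the libraries in this series, and with the number as a block Dcn passed the test (0.77, adjusted p = 0.0088), as it did in DESeq2 (adjusted p = 0.030). Dcn in the S6K1/S6K2 series was 560, 89.1 and 77.5 CPM in WT EV and 218, 101 and 118 CPM in WT RAS. The groups overlapped, the change was -0.73 (SE 0.67, adjusted p = 0.44), and its sign turned to 0.81 (adjusted p = 0.099) without WT EV replicate 1.

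Lum, lumican, a keratan sulfate proteoglycan of the cornea that spaces collagen fibrils and shares a collagen site with Fmod, was 97.0, 88.3 and 139 CPM in WT EV and 243, 311 and 127 CPM in WT RAS of the S6K1 series. It was higher in 2 of 3 replicate numbers and about equal in the other, a change of 1.07 (log2, SE 0.30, edgeR adjusted p = 0.045). The call did not hold without WT EV replicate 1 or 2 or WT RAS replicate 1 or 2 (adjusted p 0.118 to 0.164), with only the 6 libraries compared in the fit (0.091) or with all 18 (0.203). Lum in the S6K1/S6K2 series was 529, 230 and 106 CPM in WT EV and 169, 48.3 and 43.0 CPM in WT RAS, lower in 3 of 3 replicate numbers. There the change was -1.73 (SE 0.63, edgeR adjusted p = 0.069), and Lum passed in edgeR with the replicate block (-1.77, adjusted p = 0.023). The WT EV and WT RAS libraries of this series were paired too, but that fit also gave the DKO RAS libraries, which were not paired, the block of their number. With the block, 7 members were lower and 2 higher in the S6K1 series, of 18.1% of genes lower and 18.1% higher, and 8 lower and 0 higher in the S6K1/S6K2 series, of 13.7% and 15% of genes.

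**Figure D2:**
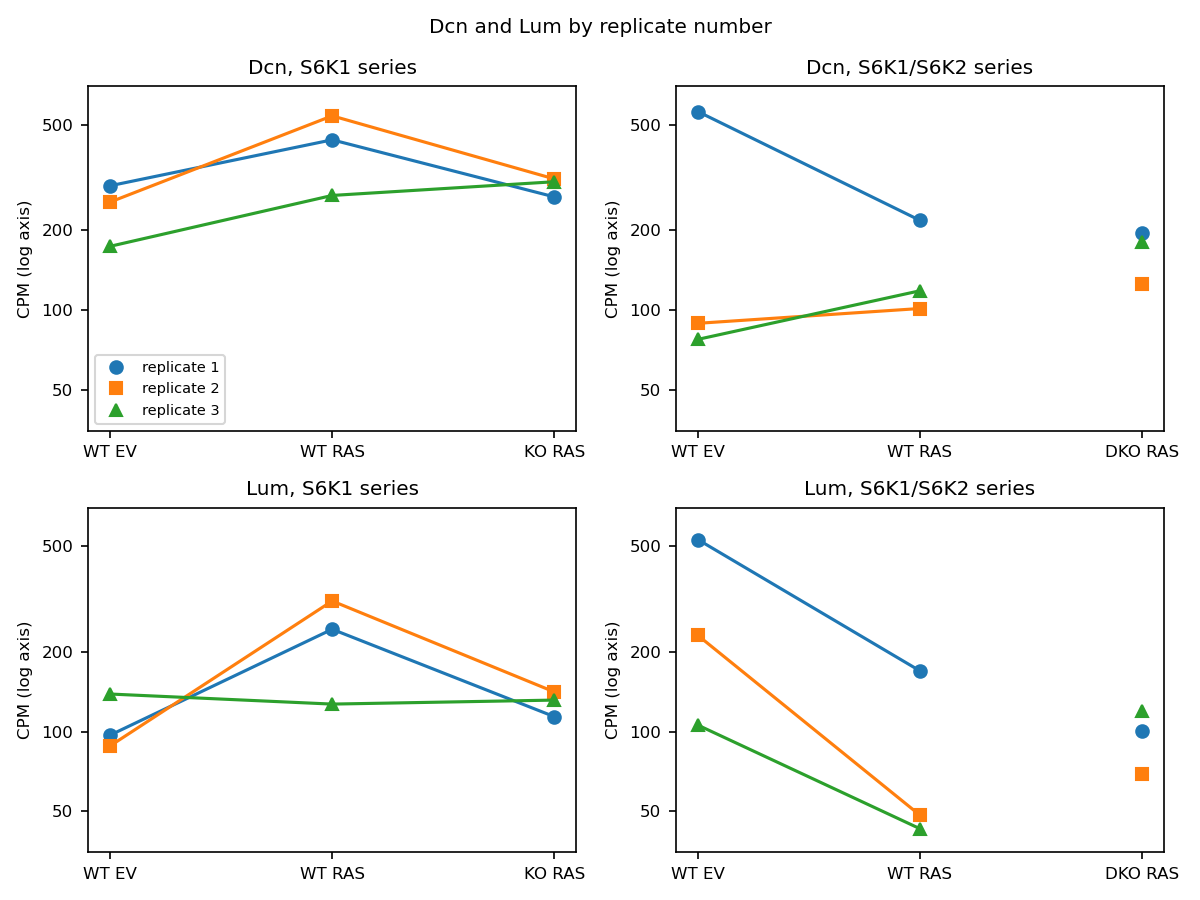
Level of Dcn (top) and Lum (bottom) in CPM on a log axis, by group, for the S6K1 series (left) and the S6K1/S6K2 series (right). Each symbol and colour is a replicate number, and lines join libraries that the replicate number paired, so DKO RAS is not joined. Dcn rises in all 3 lines of the S6K1 series under RAS, and Lum falls in all 3 of the S6K1/S6K2 series.

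The RAS effects of the 2 series were then set against each other in a fit of all 18 libraries. Both effects are those of WT cells, and series and batch cannot be told apart in their difference. By edgeR 0 members differed, of 0% of the 14483 genes. At an unadjusted p under 0.05 there was 1 member, where 1819 of the 14483 genes were under that threshold. That member was Lum, whose effect was 2.83 log2 units lower in the S6K1/S6K2 series (SE 0.76, 95% interval -4.45 to -1.20, adjusted p = 0.214). By DESeq2 it was 1 member, Lum (adjusted p = 0.021), of 0.988% of genes. The edgeR adjusted p was 0.059 with the block, and over the other settings tried it lay between 0.0019 and 0.48. Dcn had a difference of -1.53 (SE 0.79, adjusted p = 0.43). For the 7 members that fell in both series the differences were -0.47 to 0.28, with adjusted p-values of 0.83 or above, and the Fmod interval of -3.72 to 2.79 was the widest.

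**Figure D3:**
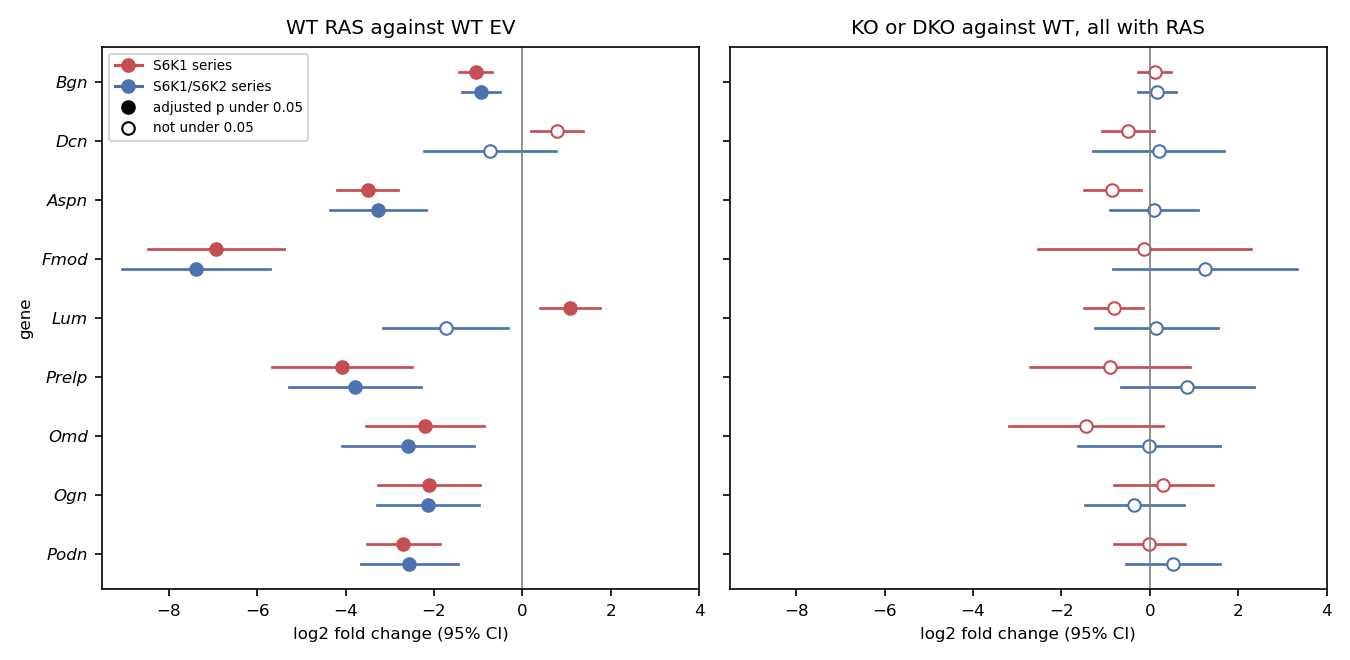
Fold change (log2, with its 95% confidence interval from edgeR) of each member under RAS in WT cells (left) and with loss of S6K1 or of both kinases in cells with RAS (right), red for the S6K1 and blue for the S6K1/S6K2 series. Filled points have an adjusted p under 0.05. In the left panel 7 members lie below 0 in both series, from -7.38 for Fmod to -0.93 for Bgn, and in the right panel no point is filled.

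Loss of S6K1, or of both kinases, moved none of the 9 members past the test in cells with RAS. In KO RAS against WT RAS, 0 members passed in edgeR, where 0.00712% of all genes did. At an unadjusted p under 0.05 there were 2, Aspn (-0.85 log2, SE 0.29, adjusted p = 0.587) and Lum (-0.82, SE 0.30, adjusted p = 0.588). Over all genes, 963 of the 14036 tested were under that threshold in edgeR. With the block 0 members passed, where 4.15% of genes did, and in DESeq2 0, where 0.449% did. Aspn was 29.2, 32.0 and 56.2 CPM in KO RAS, below all 3 WT RAS libraries, and Lum was 114, 141 and 131 CPM, of which the first is below all WT RAS libraries and the others overlap them. The 12 macrophage markers had a summed level of 712 to 3661 CPM in WT RAS against 235 to 840 CPM in the KO RAS libraries, and their part in these differences was not tested. Prelp was 0.455, 0.230 and 2.83 CPM in KO RAS and its difference of -0.90 (95% interval -2.70 to 0.90) was not resolved. Omd had 1, 0 and 7 counts in KO RAS. For Bgn the interval was -0.27 to 0.49 around a difference of 0.11, the narrowest of the 9.

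In DKO RAS against WT RAS, 0 members passed in edgeR, where 0.0216% of all genes did, and 0 had an unadjusted p under 0.05. Over all genes, 179 of the 13881 tested were under that threshold. In DESeq2 0 passed, where 0.0721% of genes did, but DESeq2 gave no test of Dcn in the comparisons within this series. DKO RAS replicate 3 was the highest of its group for 8 of the 9 members, all but Dcn, at 3.61 CPM for Fmod, 8.57 for Prelp and 70.6 for Podn, against 0.0991, 0.892 and 12.8 CPM in replicate 1. The differences ran from -0.35 for Ogn to 1.25 for Fmod (95% interval -0.84 to 3.33), and without replicate 3 that of Fmod was -0.10. Bgn had an interval of -0.26 to 0.60. The loss effects of the 2 series differed for 0 members (0 at an unadjusted p under 0.05, 0 by DESeq2), where 0.0069% of genes differed in edgeR and 0.00691% in DESeq2. At an unadjusted p under 0.05 in edgeR, 178 of the 14483 genes differed.

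The RAS cells without the kinases were also set against WT EV, with the same EV libraries as above. In KO RAS, 7 members were lower than in WT EV, of 8.56% of genes lower, and 0 were higher, of 9.55%. In DKO RAS 7 were lower, of 12.6%, and 0 were higher, of 13.1%. They were the 7 that were lower in WT RAS. For Fmod the change was -7.05 (log2, SE 0.69, edgeR adjusted p = 3.0e-04) in KO RAS and -6.13 (SE 0.67, adjusted p = 0.00034) in DKO RAS. Prelp changed by -4.99 (SE 0.76, adjusted p = 0.0023) and -2.94 (SE 0.63, adjusted p = 0.0084), and Aspn by -4.35 (SE 0.32, adjusted p = 1.0e-04) and -3.18 (SE 0.48, adjusted p = 0.0017). Dcn (0.29, adjusted p = 0.50) and Lum (0.26, adjusted p = 0.61) were not distinguished from WT EV in KO RAS, and in DKO RAS Lum was at -1.58 (SE 0.63, adjusted p = 0.091).

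The mixture of members was described per kilobase of exon, with no test. Per kilobase of exon, Bgn made up 60.5% to 82.9% of the summed level in WT EV libraries of the S6K1/S6K2 series and 70.0% to 75.6% in those of the S6K1 series. In WT RAS its share was 80.9% to 87.9% and 63.3% to 78.7%, overlapping WT EV in both. The summed level of the other 8 was 695 ± 40.2 CPM per kilobase (SD, n = 3) in WT EV, 390 ± 101 in WT RAS and 273 ± 39.6 in the KO RAS libraries of that S6K1 series. For the S6K1/S6K2 series it was 893 ± 592, 217 ± 68.8 and 224 ± 64.2 for WT EV, WT RAS and DKO RAS. Of this sum, Dcn and Lum held 23.8% to 28.5% in the WT EV libraries of the S6K1 series and 70.0% to 87.6% in WT RAS, with 70.5% to 84.7% in the KO RAS libraries. For the S6K1/S6K2 libraries these shares were 21.5% to 34.9%, 41.2% to 66.3% and 50.6% to 77.4%. Dcn and Lum were put together after it was seen that they were not among the 7 that fell, so a higher share follows from that choice and supports nothing. Their own means fell in the S6K1/S6K2 series, Dcn from 125 to 75.3 and Lum from 139 to 41.9 CPM per kilobase from WT EV to WT RAS.

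In WT EV of the S6K1 series the order of levels per kilobase was Bgn, Aspn, Ogn, Dcn, Lum, Podn, Prelp, Fmod and Omd, and the ranges of the 3 libraries overlapped between Ogn and Dcn and between Prelp and Fmod. In WT RAS it was Bgn, Dcn, Lum, Aspn, Ogn, Podn, Prelp, Omd and Fmod, with overlap between Dcn and Lum and between Aspn and Ogn. Fmod moved from place 8 to place 9 and Aspn from place 2 to place 4. In WT EV of the S6K1/S6K2 series the order was Bgn, Ogn, Aspn, Lum, Dcn, Podn, Fmod, Prelp and Omd, and neighbours overlapped from Ogn to Fmod and between Prelp and Omd. Fmod was the last of the 9 in all 4 RAS groups.

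**Figure D4:**
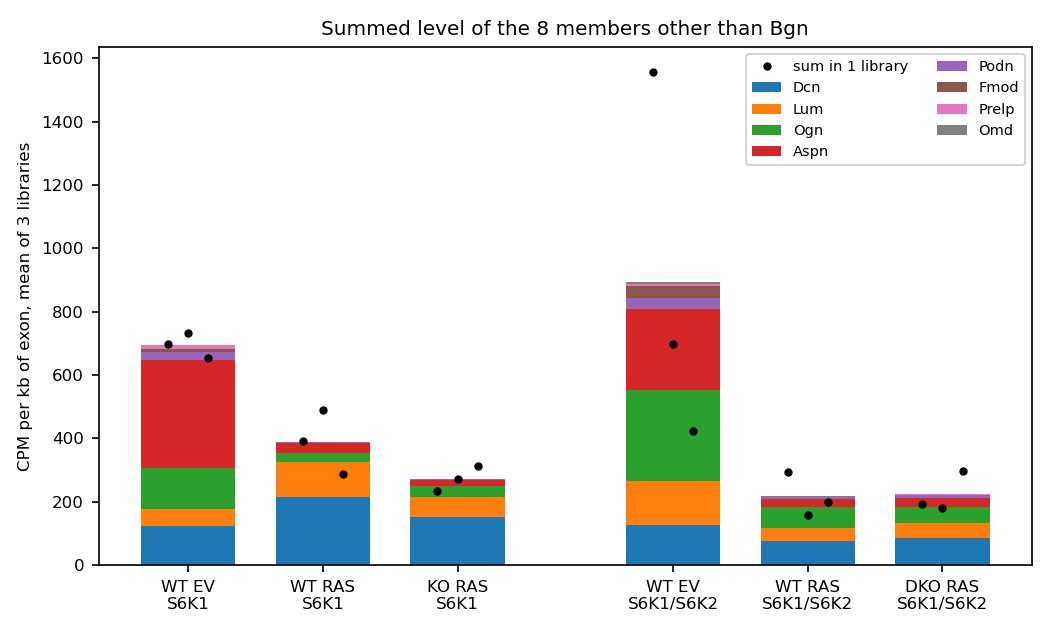
Summed level of the 8 members other than Bgn, in CPM per kilobase of exon. Stacked bars are means of 3 libraries and black points are the sums of single libraries. Aspn (red) and Ogn (green) make up most of the EV bars, Dcn (blue) and Lum (orange) most of the RAS bars of the S6K1 series, and replicate 1 lies far above the other libraries in WT EV of the S6K1/S6K2 series.

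Most genes of the collagen fibril list, which also held genes of elastic fibres and of collagen processing, were lower as well. In WT RAS against WT EV, 22 of 33 were lower and 0 higher in the S6K1 series, where 6.09% of all genes were lower and 7.15% higher. In the S6K1/S6K2 series 23 of 33 were lower and 0 higher, where 12.7% of all genes were lower and 13.5% higher. The medians were -1.15 and -1.18 (log2) against 0.00184 and -0.024 for all genes. Eln, the elastin gene, was 68.4 ± 53.8 CPM (SD, n = 3) in WT EV and 7.13 ± 1.84 in WT RAS of the S6K1 series, and 613 ± 782 against 14.8 ± 2.24 in the other. Fbn2, a fibrillin, fell by 2.74 (SE 0.42, edgeR adjusted p = 0.0029) in the S6K1 series, and Comp, which links collagen fibrils, fell by 7.27 (SE 1.07, adjusted p = 0.0015) in the S6K1/S6K2 series. Of this list, 0 genes passed in KO RAS or in DKO RAS against WT RAS in edgeR, where 0.00712% and 0.0216% of all genes did. At an unadjusted p under 0.05 in edgeR there were 4 and 0, where 963 of 14036 and 179 of 13881 genes were under that threshold.

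The genes that build the glycosaminoglycan chains did not move one way. Of 33 tested in the S6K1 series, 2 were higher and 3 lower, with a median of -0.0469, and of 31 in the S6K1/S6K2 series 2 were higher and 8 lower, with a median of -0.13. The shares of all genes higher and lower were 7.15% and 6.09% in the S6K1 series and 13.5% and 12.7% in the other. Chsy3, a chondroitin synthase, was 15.8 ± 1.12 CPM in WT EV and 5.04 ± 0.53 in WT RAS of the S6K1 series (-1.65, SE 0.18, edgeR adjusted p = 0.00056). Csgalnact1, which starts chondroitin chains, fell there by 0.93 (SE 0.17, adjusted p = 0.0063), and Csgalnact2 rose by 0.72 (SE 0.12, adjusted p = 0.0047). Papss2 and Chst13, chosen after their values were seen, are the other 2 genes of that count, at -0.53 and 2.28. Chst13 had a mean of only 8.89 counts per library in that series. Dsel, a dermatan sulfate epimerase, fell by 1.41 (SE 0.16, adjusted p = 0.00047) and Chst2, a sulfotransferase, by 1.27 (SE 0.25, adjusted p = 0.0062) in the S6K1/S6K2 series, where Ust rose by 0.61 (SE 0.16, adjusted p = 0.02) and Ugdh by 0.52 (SE 0.17, adjusted p = 0.048). With the block 6 were higher and 10 lower in the S6K1 series, where 18.1% of all genes were higher and 18.1% lower.

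Of 13 tested genes of proteins that cut or modify proteoglycan cores, 1 was higher and 3 lower in the S6K1 series and 4 higher and 5 lower in the other. The shares of all genes higher and lower were 7.15% and 6.09% in the S6K1 series and 13.5% and 12.7% in the other. Mmp3, stromelysin, went from 85.9 ± 28.9 to 1590 ± 650 CPM (4.21, SE 0.40, edgeR adjusted p = 3.0e-04) in the S6K1 series and from 68.5 ± 4.34 to 1078 ± 363 CPM (3.98, SE 0.30, adjusted p = 8.8e-05) in the other. The aggrecanases Adamts5 (-2.83, SE 0.38, adjusted p = 0.0016, and -2.47, SE 0.30, adjusted p = 0.00069) and Adamts1 (-1.93, SE 0.34, adjusted p = 0.0059, and -2.05, SE 0.26, adjusted p = 0.00078) fell in both series. Mmp9 rose by 3.12 (SE 0.86, adjusted p = 0.025) in the S6K1/S6K2 series. Mmp14, chosen after its values were seen, was lower in both (-0.99 and -0.92), and of the same kind in the S6K1/S6K2 series were Mmp2 (-1.48), Tpst1 (-0.91), Tpst2 (0.41) and Bmp1 (0.57). With the block 2 were higher and 5 lower in the S6K1 series, where 18.1% of all genes were higher and 18.1% lower.

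Among 20 genes of growth factors and receptors that these proteoglycans bind, 1 was higher and 5 lower in the S6K1 series and 4 higher and 2 lower in the other. The shares of all genes higher and lower were 7.15% and 6.09% in the S6K1 series and 13.5% and 12.7% in the other. Tgfb2 fell in both, from 72.9 ± 32.8 to 11.5 ± 7.65 CPM (-2.66, SE 0.54, edgeR adjusted p = 0.012) and from 197 ± 63.6 to 20.2 ± 5.85 CPM (-3.28, SE 0.39, adjusted p = 0.00053). Bmp2 rose in both, by 4.43 (SE 0.28, adjusted p = 1.0e-04) and 1.65 (SE 0.38, adjusted p = 0.013). Ccn4, a matricellular protein, fell by 1.38 (SE 0.18, adjusted p = 0.0016) and 0.68 (SE 0.21, adjusted p = 0.038), and Met, a receptor that decorin binds, rose by 0.87 (SE 0.20, adjusted p = 0.011) in the S6K1/S6K2 series. Chosen after their values were seen, Tgfb3 (-1.17), Bmp4 (-1.02) and Tgfbr1 (-0.63) were the others lower in the S6K1 series, and Tgfb1 (0.65) and Igf1r (0.64) the others higher in the S6K1/S6K2 series. With the block 4 were higher and 8 lower in the S6K1 series, where 18.1% of all genes were higher and 18.1% lower.

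Core proteins of other proteoglycan families split in both directions: 5 were higher and 7 lower of 23 in the S6K1 series and 5 higher and 3 lower of 23 in the other. The shares of all genes higher and lower were 7.15% and 6.09% in the S6K1 series and 13.5% and 12.7% in the other. Prg4, lubricin, rose from 6.94 ± 3.04 to 75.6 ± 77.0 CPM (3.46, SE 0.70, edgeR adjusted p = 0.011) and from 9.30 ± 6.74 to 244 ± 111 CPM (4.71, SE 0.58, adjusted p = 0.00069). Col18a1, a basement membrane proteoglycan, rose by 1.97 (SE 0.22, adjusted p = 0.00067) in the S6K1 series, and Cd44 by 2.32 (SE 0.36, adjusted p = 0.0018) in the S6K1/S6K2 series. Cspg4, of pericytes and progenitors, fell by 2.32 (SE 0.29, adjusted p = 0.0011) and 1.88 (SE 0.41, adjusted p = 0.0098), and Gpc3 by 1.87 (SE 0.52, adjusted p = 0.043) and 2.24 (SE 0.43, adjusted p = 0.0052). The others higher or lower in the S6K1/S6K2 series, chosen after their values were seen, were Esm1 (4.45), Col18a1 (2.02), Ptprz1 (1.51) and Gpc4 (-0.65). Esm1 (3.83), Cspg5 (1.62) and Cd44 (1.09) were the others higher in the S6K1 series, and Gpc6 (-1.70), Vcan (-1.69), Ptprz1 (-1.48), Gpc4 (-1.27) and Sdc1 (-0.46) the others lower there. Cspg5 had a mean of only 13.6 counts per library in that series.

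**Figure D5:**
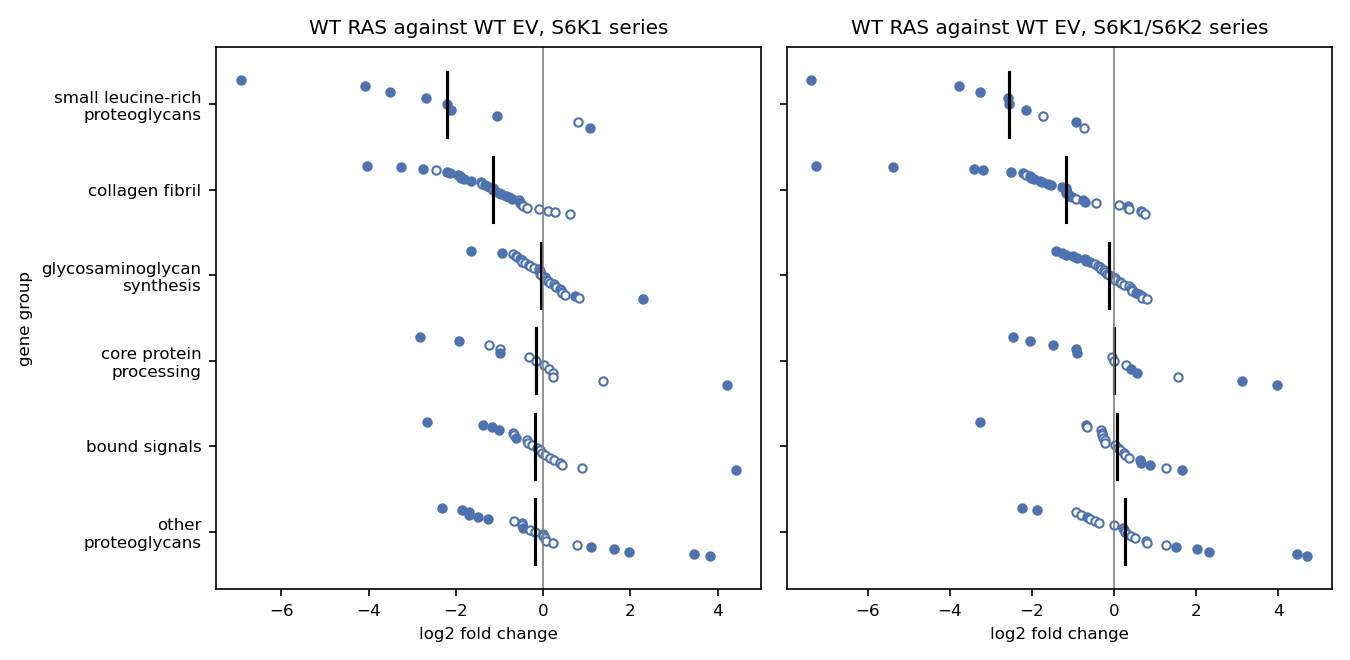
Fold change (log2) of single genes in WT RAS against WT EV for the 9 members and 5 related gene groups, in the S6K1 series (left) and the S6K1/S6K2 series (right). Filled points have an edgeR adjusted p under 0.05 and black bars are group medians. The medians of the members, -2.20 and -2.55, and of the collagen fibril list, -1.15 and -1.18, lie below 0, and those of the other groups lie between -0.20 and 0.26.

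With the replicate block, a few genes of these lists passed in KO RAS against WT RAS. They were 2 of 33 tested in the collagen fibril list, 3 of 23 other proteoglycans and 2 of 20 binding partners. Of the chain-building genes 1 of 33 passed, and of the core-processing genes 0 of 13. Of all genes 4.15% passed in that fit, and so did all 12 macrophage markers, which were lower in KO RAS, from -2.92 for Mrc1 to -1.75 for Cd68. In edgeR with the block, Col14a1 (-1.02, SE 0.24, adjusted p = 0.043) and Plod2 (0.59, SE 0.13, adjusted p = 0.040) of the collagen fibril list passed. Srgn (-2.003, SE 0.16, adjusted p = 6.8e-05), Agrn (-0.60, SE 0.13, adjusted p = 0.036) and Spock3 (0.82, SE 0.16, adjusted p = 0.016) passed among the other proteoglycans. Cd14 (-1.48, SE 0.15, adjusted p = 3.0e-04) and Tlr2 (-1.27, SE 0.16, adjusted p = 0.0014), receptors of the signals biglycan can give, passed among the binding partners. Among the chain-building genes B3gnt7 passed (-1.81, SE 0.40, adjusted p = 0.035), with a mean of only 14 counts per library. Srgn, Cd14 and Tlr2 are also expressed by macrophages, and the part of macrophage RNA in these values was not tested. These 8 genes were chosen after their values were seen, and 0 of these lists' genes passed without the block.

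Other leucine-rich repeat genes of the matrix were mostly low. Kera, keratocan, next to Lum, was at 47 counts in WT EV replicate 1 of the S6K1/S6K2 series, at 0 in the WT RAS libraries of that series, and at 12 counts or fewer elsewhere. Epyc was at most 75 counts, Optc was 12 to 48 counts in every library, and Chad was at 0 in all 18. Ecm2, next to Aspn, was 12 to 16 counts in WT EV and 1 to 4 in WT RAS of the S6K1 series (-2.50, SE 0.56, edgeR adjusted p = 0.019). Ecm2 too lies inside Cenpp, whose counts were higher in the libraries of that series. In the S6K1/S6K2 series Ecm2 had 125, 29 and 6 counts in WT EV and 2, 1 and 2 in WT RAS. Cenpp had 33, 81 and 35 and then 28, 7 and 22 counts in the same libraries. The part of Cenpp reads in Ecm2 was not tested. Tsku, tsukushi, was the most abundant relative, and rose by 0.86 (SE 0.18, adjusted p = 0.0073) in the S6K1/S6K2 series and by 0.52 (SE 0.22, adjusted p = 0.17) in the S6K1 series, where it passed with the block (adjusted p = 0.0038). Chadl fell by 1.83 (SE 0.46, adjusted p = 0.018) in the S6K1/S6K2 series, and was -1.48 (SE 0.48, adjusted p = 0.076) in the other, where it also passed with the block (adjusted p = 0.012).

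Over the 18 libraries, centred within each series, the profile of Fmod was most like those of Fzd2 (Pearson r = 0.98), Pdgfrl (0.98) and Nfix (0.98) among 9821 genes that were no members. For the other members the most similar gene was Adamtsl3 for Bgn (0.98), 1110067D22Rik for Aspn (0.99), Col8a2 for Podn (0.98), Epha7 for Ogn (0.97), Cxcl15 for Prelp (0.97), Abi3bp for Omd (0.94), Tmem161b for Dcn (0.86) and the gene ENSMUSG00000098557 for Lum (0.87). Between members, Fmod and Podn had 0.97, Bgn and Podn 0.98 and Dcn and Lum 0.67, while Dcn and Fmod had -0.12. The libraries of a series share litters and fall into EV and RAS groups, and these values are a description over 18 points of that kind.

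Several lists of markers of other cell types differed between EV and RAS libraries. The 5 tendon markers summed to 20.7 to 44.6 CPM in WT EV and 10.2 to 14.6 CPM in WT RAS of the S6K1 series, and to 37.8 to 91.8 CPM and 19.5 to 23.7 CPM in the other, with Kera at 0 in the WT RAS libraries of that series. The 6 epithelial markers, keratins among them, went from 9.89 to 18.4 CPM up to 146 to 175 CPM and from 8.05 to 11.2 CPM up to 145 to 175 CPM, with 4 and 3 of 6 above 3 counts in WT EV and 6 of 6 in WT RAS. The 8 bone markers went from 3800 to 8067 CPM to 9340 to 14603 CPM and from 853 to 5788 CPM to 19515 to 26277 CPM, but with only 3 and 6 of 8 above 3 counts in WT EV and 5 and 5 in WT RAS. Spp1, with a mean of 132266 counts per library in the S6K1 series, makes up nearly all of these sums. Of the 8, Bglap and Alpl were at 0 in WT EV of the S6K1 series and in WT RAS of the S6K1/S6K2 series. The 12 macrophage markers summed to 626 to 3154 CPM in the WT EV libraries of the S6K1 series, and to 154 to 1379 CPM in WT EV, 171 to 991 CPM in WT RAS and 69.8 to 230 CPM in DKO RAS of the other, and all 12 were above 3 counts in each group. The WT RAS libraries overlapped WT EV for macrophage markers in both series. The 13 cartilage markers summed to 25.1 to 45.6 CPM in WT EV and 23.2 to 30.7 CPM in WT RAS of the S6K1 series, and to 76.6 to 116 and 31.0 to 32.1 CPM in the other. The 8 muscle markers, of which 2 were above 3 counts, summed to 55.7 to 85.7 and 150 to 168 CPM, and to 6.55 to 40.5 and 77.2 to 230.2 CPM. For the 7 endothelial markers the sums were 98.5 to 249 and 58.6 to 94.5 CPM, and 29.0 to 46.2 and 44.2 to 50.3 CPM. For the 6 neural markers they were 48.6 to 54.1 and 22.7 to 38.6 CPM, and 15.6 to 81.4 and 52.8 to 110 CPM. Those of the 6 adipocyte markers, 45.8 to 105 and 35.7 to 59.6 CPM, and 37.7 to 244 and 43.3 to 44.6 CPM, overlapped in both series. The part of cell mixture in the results of the members was not tested. In bulk RNA, fewer cells of a type and less RNA per cell cannot be told apart.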

How the data were processed

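Gene counts of 18 libraries were analysed as deposited. The authors made these counts from single-end reads of polyadenylated RNA. The study's methods name TopHat, HTSeq and mm9, and the submitters' processing notes name STAR 2.7.1a, DESeq2 1.28.1 and mm10. The strand setting of the counting is not given in the sources used here. Totals were 8319445 to 14402442 counts per library. Counts were tested with the quasi-likelihood F test of edgeR 4.0.16 (R 4.3.3) after filterByExpr (minimum count 10) and TMM scaling, each series fitted alone, with Benjamini-Hochberg adjustment over all genes tested and a threshold of 0.05. The standard error is the log2 change divided by the square root of F. CPM values are TMM-scaled within a series, and per-kilobase levels use the summed exon length of the gene. Counting intervals (95%) and the floor of 3 counts cover counting error only. The scripts were tested on simulated data.

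Same-numbered libraries deviated together over 13550 genes in the S6K1 series (correlations of 0.406 to 0.706) and between WT EV and WT RAS of the S6K1/S6K2 series (0.289 to 0.374), so the replicate number was taken as a pairing there, from these correlations; the study's methods describe pairs of embryos from 3 mothers but do not tie them to the numbers. DKO libraries were not paired (-0.117 to 0.471). The fits with the block held all libraries of a series and gave DKO libraries the block of their number as well. Block results of the S6K1/S6K2 series and of the differences between series are limited by this. Replicates are 3 separate embryo cultures a group. Genes of other lists were named when they were among up to 2 with the highest and 2 with the lowest change that passed the test with a mean of at least 100 counts. Members and lists were chosen with earlier results of these data known. Alternatives were DESeq2 1.42.0, other scalings and filters, the replicate block, other sets of libraries in the fit and leaving out each replicate.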

Additional observations from a re-analysis of the deposited data

How the results depend on the processing

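The directions of the 7 members that fell under RAS held in both series under every alternative that could be computed. With at least 10 counts required in every library, 6 members were tested and 5 passed in WT RAS against WT EV of the S6K1 series, and 4 in the S6K1/S6K2 series, in KO RAS against WT EV and in DKO RAS against WT EV, since Fmod, Prelp and Omd were no longer tested. In the same order of comparisons, all genes had 729, 1588, 1015 and 1502 higher and 710, 1518, 1014 and 1506 lower. They were 12179 genes tested in the S6K1 series and 11831 in the other. Leaving out 1 library at a time, 5 to 8 members passed in the S6K1 series, 5 to 8 in the S6K1/S6K2 series, 6 to 7 in KO RAS and 5 to 8 in DKO RAS against WT EV, 0 to 0 in both loss comparisons and in the difference between the loss effects, and 0 to 1 in the difference between the RAS effects. The 5 of the S6K1 series was reached without WT EV replicate 2, WT RAS replicate 1 or WT RAS replicate 2. Calls of all genes fell there too, to 496 of 14229, 449 of 14336 and 383 of 14233 lower, against 855 of 14036 with all libraries. Leaving out 1 library, all genes lower under RAS ran from 383 to 878 in the S6K1 series and from 850 to 1976 in the other. Against WT EV they ran from 536 to 1034 in KO RAS and from 850 to 1956 in DKO RAS. The difference between the RAS effects had 1 member, Lum, with DESeq2, with no filter on low counts and without WT EV replicate 3 of the S6K1/S6K2 series. In these fits 53 of 14480, 76 of 30065 and 91 of 14806 genes were lower, as Lum was, and 90, 128 and 199 were higher.

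With the replicate block, Dcn joined the calls in the S6K1 series (0.77) and Lum in the S6K1/S6K2 series (-1.77). The block turned the sign of Omd in DKO RAS against WT RAS to 0.035, of Dcn in DKO RAS against WT EV to 0.0029 and of Ogn in the difference between the RAS effects to 0.13, none of them called, and it changed no other call of a member. Over all genes it raised the calls under RAS in the S6K1 series from 855 lower and 1004 higher to 2545 and 2540, and those of KO RAS against WT RAS from 1 to 583. DESeq2 gave 63 for the latter, 10 against 3 for DKO RAS, and 143 against 0 for the difference between the RAS effects.

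Leaving out 1 library also turned signs of values that were not called. Dcn ran from -1.15 to 0.81 under RAS in the S6K1/S6K2 series and from -0.95 to 1.00 in DKO RAS against WT EV, where it passed (adjusted p = 0.049 in edgeR) without WT EV replicate 1. In KO RAS against WT RAS the ranges were -0.91 to 0.78 for Fmod, -0.021 to 0.25 for Bgn, -0.25 to 1.01 for Ogn and -0.52 to 0.26 for Podn. In DKO RAS against WT RAS they were -0.10 to 1.79 for Fmod, -0.0018 to 0.61 for Dcn, -0.18 to 1.08 for Lum, -0.40 to 0.45 for Aspn, -0.45 to 1.31 for Prelp, -0.88 to 0.35 for Omd and -0.25 to 0.95 for Podn. In the difference between the RAS effects they were -1.16 to 0.45 for Fmod, -0.34 to 0.73 for Ogn, -0.093 to 0.61 for Aspn, -0.41 to 0.56 for Prelp, -0.82 to 0.17 for Omd and -0.069 to 0.37 for Podn, and in that between the loss effects -0.038 to 0.21 for Bgn and -0.22 to 1.06 for Podn. The cause was not tested. Depth limits Fmod, Omd and Prelp in cells with RAS, where a library held as few as 1, 0 and 3 counts.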
